A study of Homo sapiens with 6 samples.

Results

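The ERBB receptor system of OVCAR8 cells was followed in 10 genes chosen by name, out of 38637 genes in the table: the receptors EGFR, ERBB2 and ERBB3, the EGF-like ligands AREG, EREG, HBEGF, TGFA, BTC and NRG1, and the receptor inhibitor ERRFI1. All 10 were found. OVCAR8 is a human ovarian cancer cell line, labelled wild type here. Cells received either DMSO, the solvent, or 2 nM pladienolide B for 72 h, and poly(A) RNA was sequenced from 3 samples of each group. Pladienolide B binds SF3B1, a subunit of the spliceosome that recognises branch points, and inhibits splicing. Only this single line, dose and time were measured, and since the labels do not say that the 3 samples of a group came from separate cultures, p-values measure the spread between these samples, which may be technical.

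ERBB receptors are tyrosine kinases that pair when a ligand binds and then signal through the RAS-ERK and PI3K-AKT routes. AREG, EREG, HBEGF, TGFA and BTC bind EGFR, and they are made as membrane-anchored precursors that proteases of the ADAM family cut free. ERBB2 has no known ligand and serves as a partner for the other receptors, whereas ERBB3 has little kinase activity of its own, binds neuregulins such as NRG1 and recruits PI3K. ERRFI1, also called MIG6, binds the kinase domain of activated EGFR and restrains it. An autocrine loop of NRG1 and ERBB3 has been described in ovarian cancer cells.

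In pladienolide B, ERBB3 and its ligand were lower, while EGFR, several of its ligands and ERRFI1 were higher. ERBB3 fell to 64.1% of its level in DMSO and its ligand NRG1 to 75.6%, whereas the EGFR ligands AREG, HBEGF and TGFA rose 1.63-fold, 1.44-fold and 1.44-fold and ERRFI1 rose 1.49-fold. EGFR rose by a small amount, 1.09-fold. ERBB2 and BTC did not pass the test, and EREG had too few reads to be tested.

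The values are adjusted reads, that is, reads per gene brought by the authors to a common library size, and they were compared as log2(value + 1) with limma over all 16178 genes that passed a filter on low values. A gene was called when its Benjamini-Hochberg adjusted p over these genes was below 0.05. Of the 10 genes, 9 were tested and 7 were called, against 47.6% of all tested genes. Of these, 5 were higher in pladienolide B, where 22.4% of all tested genes were higher, and 2 were lower, where 25.2% were lower. The samples of the groups did not overlap for 8 of the 9, against 55.3% of all tested genes. The 10 genes were chosen with earlier results of these data known, so these shares describe them and do not test the set. The largest change in either direction was that of AREG, at 0.70 on the log2 scale, and 3.93% of all tested genes were called with a change of 2-fold or more.

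The samples held 22621338 to 26130882 recovered reads on genes. DMSO replicate 2 stood apart: the chi-square per degree of freedom of its reads against the other DMSO replicates was 7.34 and 7.25, where DMSO replicates 1 and 3 gave 2.01 and pairs of pladienolide B samples gave 3.17 to 4.82. For 7 of the 9 tested genes this sample lay farther from the pladienolide B samples than the other DMSO samples did, so changes without it are given beside the results, and its part in them was otherwise not tested. Of 9 epithelial and Müllerian markers, 8 had 10 or more adjusted reads in every sample, which is a low cut. MUC16, WT1 and CDH1 had DMSO means of only 18.0, 20.6 and 23.8 adjusted reads, where KRT8 had 41458. The Müllerian transcription factor PAX8 had 4108 ± 84.6 adjusted reads in DMSO and 4341 ± 216 in pladienolide B (SD, n = 3). Of the 9, KRT8, KRT18 and CDH1 were called higher and KRT7 lower, with log2 fold changes of 0.27, 0.29, 0.67 and -0.64, and the call of CDH1 was lost under 7 of 14 alternatives and that of KRT18 with limma without the variance trend, at an adjusted p of 0.057. Summed over these 9 markers, the DMSO samples had 75666 to 81853 adjusted reads and the pladienolide B samples 77539 to 92785. Of 9 markers of other cell types, 5 also had 10 or more adjusted reads in every sample, and these were tested. COL1A1 had a DMSO mean of 6800 adjusted reads, above that of PAX8, and fell by 0.21 on the log2 scale. CD68 had a DMSO mean of 1146 and rose (log2 fold change 0.41). The DMSO samples summed to 7889 to 8267 adjusted reads over the 9 and the pladienolide B samples to 7189 to 7963. The leukocyte marker PTPRC, the T cell marker CD3E and the erythroid marker HBB had at most 2 adjusted reads in any sample. The part of these markers in the results was not tested, and since the RNA is from bulk cultures, fewer cells expressing a gene and less RNA per cell cannot be told apart.

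The promoters of the 4 genes called higher with changes above 1.4-fold are shown. Whether these sequences have a part in the changes was not tested. Promoter sequences from RefSeq on GRCh38.p14 were found for 8 of the 10 genes, and for 7 of these the entry starts where the table places the gene start. Each sequence is the 250 bases before the start, read 5′ to 3′ in the direction of the gene, with capitals marking matches on either strand to an AP-1 site (TGANTCA), a cAMP response element (TGACGTCA), a GC box (GGGCGG) or a TATA box (TATAAA). Matches to a GC box can overlap each other. The windows are chr4:74444886-74445135 on the plus strand for AREG, and chr5:140346604-140346853, chr2:70553827-70554076 and chr1:8026310-8026559 on the minus strand for HBEGF, TGFA and ERRFI1.
AREG: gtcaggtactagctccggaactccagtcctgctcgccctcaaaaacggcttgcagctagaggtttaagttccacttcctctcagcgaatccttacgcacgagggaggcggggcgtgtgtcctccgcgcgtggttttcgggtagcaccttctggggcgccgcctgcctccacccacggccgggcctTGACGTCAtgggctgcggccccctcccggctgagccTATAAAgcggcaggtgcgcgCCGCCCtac
HBEGF: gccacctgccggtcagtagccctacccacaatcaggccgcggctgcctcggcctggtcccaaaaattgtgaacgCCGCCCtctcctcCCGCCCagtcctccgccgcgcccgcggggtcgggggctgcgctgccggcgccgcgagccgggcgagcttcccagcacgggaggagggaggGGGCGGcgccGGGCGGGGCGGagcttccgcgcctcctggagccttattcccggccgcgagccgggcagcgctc
TGFA: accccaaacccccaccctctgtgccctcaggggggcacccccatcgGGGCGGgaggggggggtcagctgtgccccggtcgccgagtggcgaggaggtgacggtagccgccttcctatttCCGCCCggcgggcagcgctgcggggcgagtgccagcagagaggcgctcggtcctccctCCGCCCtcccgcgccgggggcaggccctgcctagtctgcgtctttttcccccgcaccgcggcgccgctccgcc
ERRFI1: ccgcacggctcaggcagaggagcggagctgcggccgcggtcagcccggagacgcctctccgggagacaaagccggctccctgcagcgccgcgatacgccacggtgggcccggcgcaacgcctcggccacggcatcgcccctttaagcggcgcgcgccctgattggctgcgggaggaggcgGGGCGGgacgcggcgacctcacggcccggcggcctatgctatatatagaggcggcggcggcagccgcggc

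The cAMP response element of AREG begins 65 bases before the start, and its TATA box 29 bases before it. Among 35116 promoter windows of the same length in the RefSeq table, 1.65% hold the cAMP response element and 10.7% the TATA box, and AREG was the only one of the 8 genes with the former. EREG, its neighbour on the chromosome, also has a TATA box match, 32 bases before its start. Only the exact letters TATAAA were searched, so other stretches, such as the tatatata near the end of the ERRFI1 window, were not counted. GC boxes were found in the promoters of EGFR, AREG, HBEGF, TGFA and ERRFI1, that is 5 of 8, against 42.6% of all windows. HBEGF has 5 of them, at 176, 163, 73, 63 and 58 bases before the start, the last 2 overlapping, and TGFA has 3. ERBB2 has the only AP-1 match among the 8 genes, 222 bases before its start, where 6.57% of all windows have one. These are matches of letters in a window and not measured sites.

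**Figure D1:**
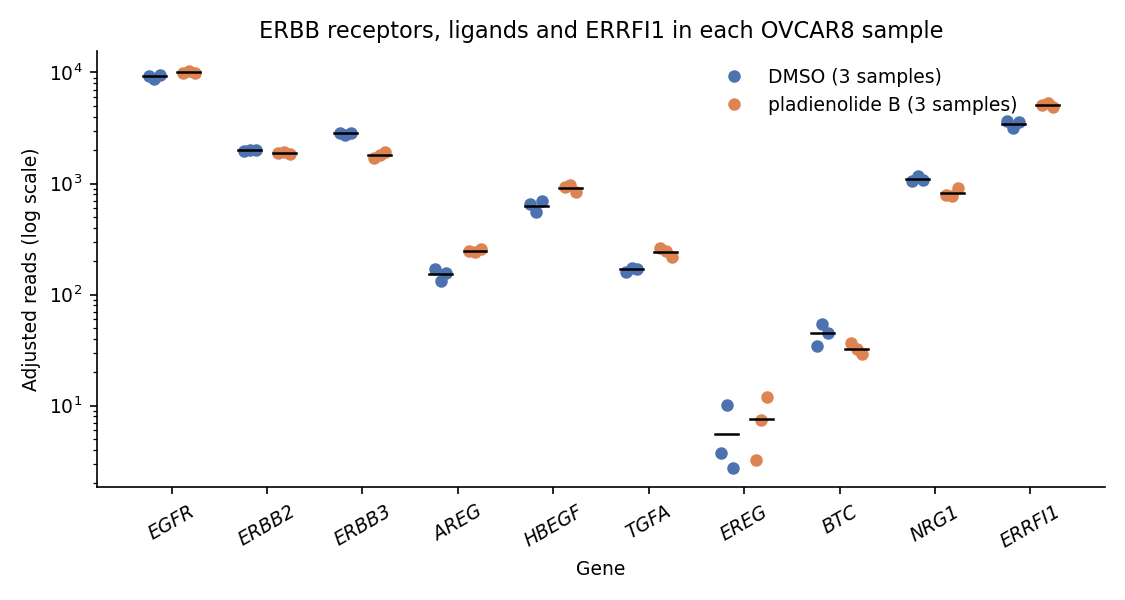
Adjusted reads (vertical axis, log scale) of the 10 genes in each sample, with DMSO in blue, pladienolide B in orange, 1 point per sample and a bar at each group mean. The groups are apart for EGFR, AREG, HBEGF, TGFA and ERRFI1, which are higher in pladienolide B, and for ERBB2, ERBB3 and NRG1, which are lower. The gaps of EGFR and ERBB2 are small, and ERBB2 was not called. The groups of EREG and BTC overlap.

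Among the receptors, ERBB3 changed most. The gene lies at chr12:56080108-56103505 on the plus strand of hg38, and its canonical transcript in GENCODE has 28 exons. Its adjusted reads were 2852, 2755 and 2875 in DMSO replicates 1 to 3 and 1689, 1822 and 1927 in pladienolide B replicates 1 to 3. The lowest DMSO sample was above the highest pladienolide B sample by several times the spread within either group. The mean went from 2827 ± 63.8 to 1813 ± 119 (SD, n = 3), a log2 fold change of -0.64 ± 0.05 (SE, limma adjusted p = 3.5e-08), and without DMSO replicate 2 it was -0.66. A noncoding gene annotated on the opposite strand, LOC105369782, had 219 to 407 reads, 13.0% of those of ERBB3 on average, and fell by 0.63 on the log2 scale (limma adjusted p = 2.1e-05). Whether reads were assigned by strand is not given in the sources used here, so reads of the antisense gene and of ERBB3 could not be separated.

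EGFR, the receptor of most of the ligands in the set, lies at chr7:55019017-55211628 on the plus strand, with 28 exons over 193 kb. It had 9355, 8758 and 9562 adjusted reads in the DMSO samples and 9879, 10399.8 and 9931 in the pladienolide B samples. All 3 pladienolide B samples were above the DMSO samples, though the lowest of them exceeded the highest DMSO sample by less than the spread within DMSO. The mean rose from 9225 ± 418 to 10070.1 ± 287 (SD, n = 3), with a log2 fold change of 0.13 ± 0.04 (SE) and a 95% interval of 0.04 to 0.22 (limma adjusted p = 0.022). The call was lost with limma without its variance trend, at an adjusted p of 0.11, and without pladienolide B replicate 2, where the log2 fold change was 0.10 and the limma adjusted p was 0.10. Without DMSO replicate 2 the log2 fold change was 0.09 (limma adjusted p = 0.03). The antisense genes EGFR-AS1 and LOC105375284 had 0.107% and 0.235% of the reads of EGFR.

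ERBB2, the receptor without a ligand, lies at chr17:39688094-39728660 on the plus strand and had 1951, 2023 and 2005 adjusted reads in DMSO against 1893, 1906 and 1843 in pladienolide B. The pladienolide B samples were the 3 lowest, but the difference did not pass the test, with a log2 fold change of -0.08 ± 0.05 (SE, limma adjusted p = 0.15) and a 95% interval of -0.18 to 0.01. Reads of the protein-coding gene MIEN1, which overlaps ERBB2 on the opposite strand, came to 18.6% of those of ERBB2, and its log2 fold change was 0.11 (limma adjusted p = 0.31). ERBB4, the remaining receptor of the family, had 2, 0 and 3 reads in DMSO and 1, 3 and 2 in pladienolide B, too few to be tested.

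AREG encodes amphiregulin, a heparin-binding EGFR ligand of low affinity, and lies at chr4:74445136-74455005 on the plus strand, with 6 exons. It had 171, 131 and 156 adjusted reads in DMSO and 249, 239 and 255 in pladienolide B. Every pladienolide B sample was above every DMSO sample, and DMSO replicate 2 was the lowest of all. The mean rose from 153 ± 20.1 to 248 ± 7.73 (SD, n = 3), a log2 fold change of 0.70 ± 0.12 (SE, limma adjusted p = 0.00011), which was 0.60 without DMSO replicate 2.

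HBEGF, the heparin-binding EGF-like growth factor, lies at chr5:140332843-140346603 on the minus strand. Its adjusted reads were 655, 549 and 693 in DMSO and 924, 969.7 and 837 in pladienolide B. Here too the groups were apart and DMSO replicate 2 was the lowest sample. The log2 fold change was 0.53 ± 0.08 (SE, limma adjusted p = 5.5e-05), and 0.43 without that sample.

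TGFA, transforming growth factor alpha, lies at chr2:70447284-70553826 on the minus strand and spans 107 kb. It had 159.9, 174 and 170.2 adjusted reads in DMSO and 261, 249 and 218 in pladienolide B. In this gene DMSO replicate 2 was the highest of its group, and the log2 fold change of 0.52 ± 0.11 (SE, limma adjusted p = 0.00081) was 0.55 without it. The changes of AREG, HBEGF and TGFA were of like size, with 95% intervals of 0.45 to 0.95, 0.35 to 0.70 and 0.29 to 0.76, and the differences between them were not tested.

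The other EGFR ligands were scarce. BTC, betacellulin, lies at chr4:74744759-74794718 on the minus strand and had 34.6, 54.4 and 45.4 adjusted reads in DMSO against 36.4, 32.0 and 29.1 in pladienolide B. DMSO replicate 1 fell within the pladienolide B range, and the log2 fold change of -0.43 ± 0.24 (SE, limma adjusted p = 0.15), with a 95% interval of -0.94 to 0.07, became -0.28 without DMSO replicate 2. EREG, epiregulin, at chr4:74365145-74388749 on the plus strand, had 4, 10 and 3 reads in DMSO and 3, 7 and 12 in pladienolide B, so that no difference was detectable at this depth. EPGN, EREG, AREG and BTC stand in this order within 487 kb of chromosome 4, with gaps of 48.4, 56.4 and 289.8 kb between neighbours. AREG was the only gene of this cluster that was called: EPGN had 0, 1 and 5 reads in DMSO and 5, 2 and 2 in pladienolide B, too few to be tested.

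NRG1, neuregulin 1, the ERBB3 ligand of the set, lies at chr8:31639245-32774046 on the plus strand and spans 1135 kb. It had 1046, 1162 and 1067 adjusted reads in DMSO and 786, 779 and 912 in pladienolide B. All pladienolide B samples were below the DMSO samples, with replicate 3 the closest. The mean fell from 1092 ± 62.1 to 826 ± 74.9 (SD, n = 3), a log2 fold change of -0.40 ± 0.07 (SE, limma adjusted p = 0.00013), which was -0.36 without DMSO replicate 2. Neither NRG2 nor NRG4, which are other neuregulins, was called, with log2 fold changes of 0.29 ± 0.18 and 0.20 ± 0.14 (SE), and NRG3 had at most 2 reads in any sample. Without pladienolide B replicate 3 both were 0.11, without pladienolide B replicate 1 NRG4 was 0.30, and NRG2 was 0.43 without pladienolide B replicate 2. Without DMSO replicate 1 NRG4 was 0.12.

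ERRFI1, the inhibitor, lies at chr1:8011725-8026309 on the minus strand, with 4 exons. It had 3632, 3150.1 and 3558 adjusted reads in DMSO and 5092, 5366 and 4895 in pladienolide B. The groups were far apart compared with the spread within them. The mean rose from 3447 ± 259 to 5118 ± 236 (SD, n = 3), a log2 fold change of 0.57 ± 0.05 (SE, limma adjusted p = 2e-07), and 0.51 without DMSO replicate 2.

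**Figure D2:**
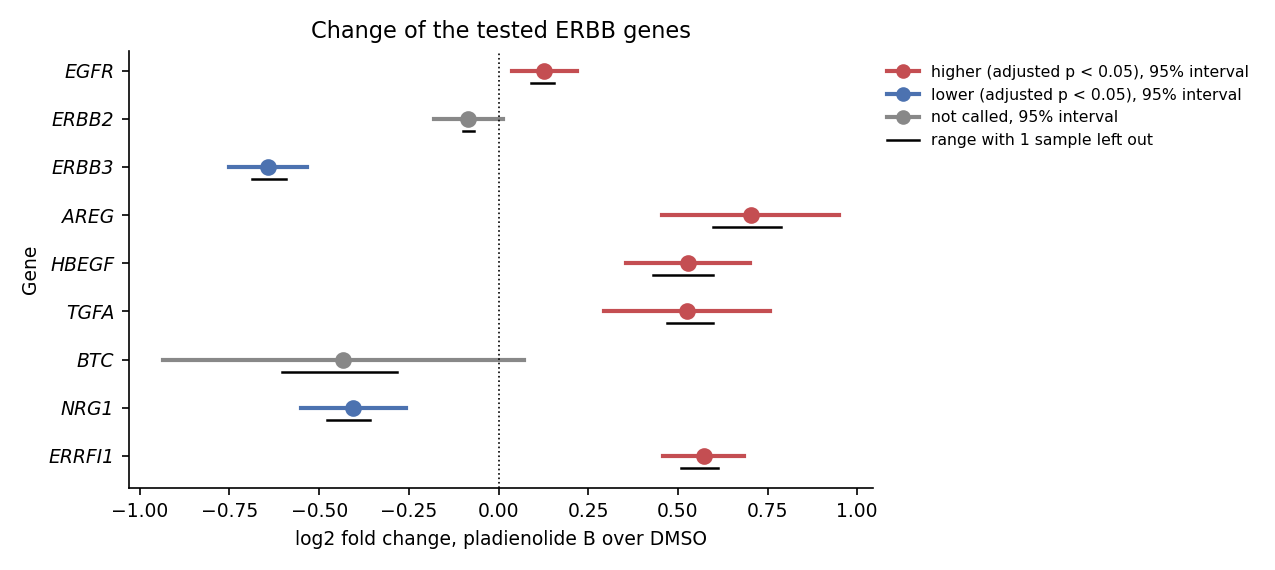
Log2 fold change in pladienolide B relative to DMSO (horizontal axis) for the 9 tested genes, with 95% intervals from limma coloured by call and, in black below each, the range when 1 sample at a time is left out. The ranges keep the sign of the change for all 9 genes, while the intervals of ERBB2 and BTC include 0.

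To compare levels between genes, reads were divided by the length of the canonical transcript in GENCODE and by the reads on genes of each sample (RPKM). On this per-length scale ERRFI1 and EGFR were the most abundant in DMSO, at 44.9 ± 3.98 and 37.6 ± 2.21 (SD, n = 3), followed by ERBB3 at 20.3, ERBB2 at 17.6, HBEGF at 10.8, AREG at 4.99, NRG1 at 3.67, TGFA at 1.65, BTC at 0.681 and EREG at 0.0483. No neighbours in this order overlapped in their sample ranges. In pladienolide B ERRFI1 stood at 68.3 ± 3.13 and EGFR at 42.0 ± 1.29, and ERBB3 moved to the fifth place. ERBB2 at 17.1 and HBEGF at 16.0 overlapped in their ranges there, with ERBB3 below both at 13.3. The remaining order was AREG at 8.29, NRG1 at 2.85, TGFA at 2.44, BTC at 0.507 and EREG at 0.0677. With lengths of all annotated exons in place of the canonical transcript, HBEGF ranked above ERBB2 in both groups and TGFA above NRG1 in pladienolide B.

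Set against EGFR in the same sample on this scale, ERBB3 went from 53.0 to 55.5 per 100 EGFR in DMSO to between 30.1 and 34.2 in pladienolide B. The corresponding ranges of ERBB2 were 45.3 to 50.2 and 39.8 to 41.6. ERRFI1 went from between 115 and 124 per 100 EGFR to between 158 and 165, and none of these ranges overlapped between groups. The adjusted reads of 55.3% of all tested genes did not overlap either. Ratios to EGFR also fall when EGFR rises, as it did by a small amount here, and ERBB2 itself was not called.

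The summed per-length level of the 7 EGFR ligands, EGF and EPGN included, was 19.2, 16.2 and 19.7 in the DMSO samples and 27.9, 28.4 and 26.4 in the pladienolide B samples. The sum was higher in every pladienolide B sample, and the shares of HBEGF, AREG and TGFA overlapped between groups. HBEGF made up 56.9% to 60.6% of it in DMSO, and with pladienolide B 55.9% to 60.1%. AREG made up 26.0% to 29.2% and 28.3% to 32.5%, and TGFA 8.22% to 10.4% and 8.36% to 9.34%. The share of BTC was 2.78% to 5.01% in DMSO, and with pladienolide B 1.73% to 2.02%, without overlap. This share also falls when the sum rises, and the adjusted reads of BTC itself overlapped between groups and were not called different.

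**Figure D3:**
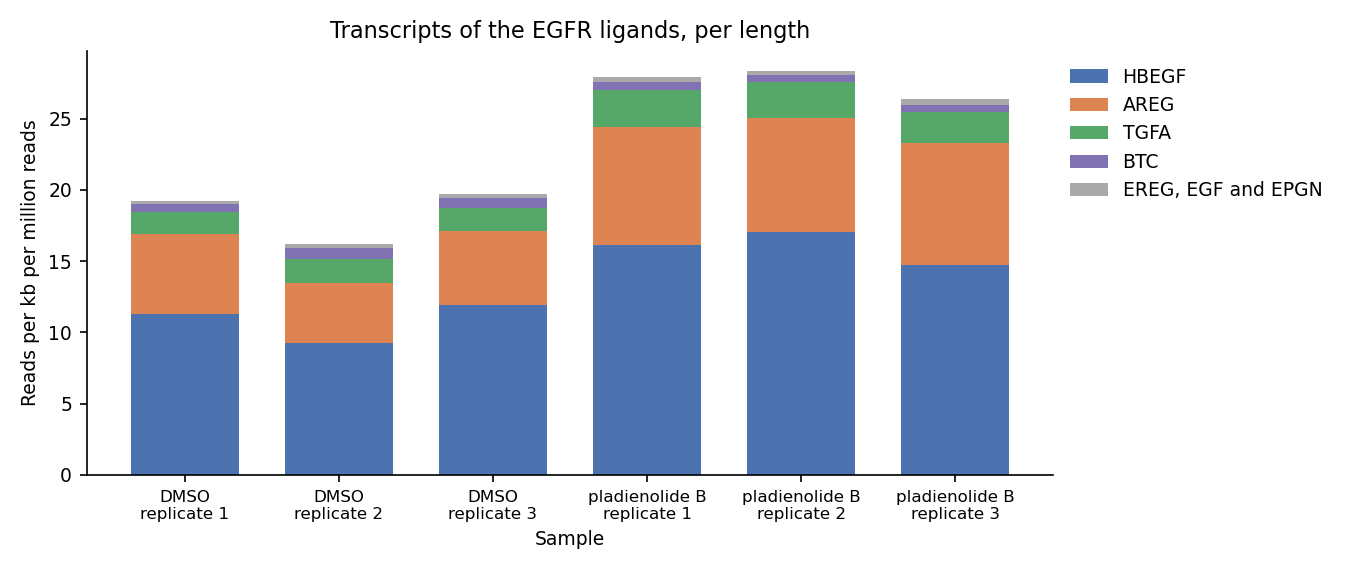
Stacked per-length levels (RPKM, reads per kb of transcript scaled to the reads on genes) of the EGFR ligands in each of the 6 samples, with EREG, EGF and EPGN drawn together. The DMSO bars reach 16.2 to 19.7 and the pladienolide B bars 26.4 to 28.4, and HBEGF is the largest segment in every sample.

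The gene whose samples changed with the smallest p among the 10 was ERBB3, and the tested genes most like it over the 6 samples were SIM1, COX11 and FOS, with Pearson correlations of log2 values of 0.999, 0.999 and 0.998. These correlations mostly carry the difference between groups, which the genes share with ERBB3 in direction but not in size. COX11 fell by 0.30, SIM1 fell by 1.04 and FOS fell by 2.36 on the log2 scale, where ERBB3 fell by 0.64.

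Around the 10 genes, 102 others were placed in 7 lists by their textbook roles, and 98 of them were tested. Of these, 26 were higher and 29 lower in pladienolide B, 56.1% in all against the 47.6% of all tested genes, and their median log2 fold change was 0.01, close to that of all tested genes at -0.004. The lists are described by counts and medians, without a test of the list.

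None of the other EGF-like ligands passed the test. Of 6 genes in this list 3 were tested, EGF, NRG2 and NRG4, and 0 were called by limma, against 47.6% of all tested genes. The count was also 0 at an unadjusted p below 0.05, though 1 gene reached that with limma without the variance trend and 2 did without pladienolide B replicate 2, and 0 were called by edgeR and by DESeq2. EGF, the founding ligand of the family, had 26.1 ± 2.89 adjusted reads in DMSO and 36.2 ± 6.23 in pladienolide B (SD, n = 3).

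Genes for ligand shedding and trafficking moved in both directions, with 2 higher and 3 lower of 9 tested and a median of -0.11. The share called was 55.6%, near the 47.6% of all tested genes. CD9, a tetraspanin that associates with the HBEGF precursor, rose by 0.30 ± 0.05 (log2, SE), from 3665 to 4505 adjusted reads. RHBDF1, an inactive rhomboid needed for ADAM17 maturation, rose by 0.21 ± 0.07, but its limma adjusted p of 0.024 became 0.069, 0.063 and 0.14 without DMSO replicate 2, DMSO replicate 3 or pladienolide B replicate 2, where the log2 fold change was 0.16, 0.20 and 0.15. With limma without the variance trend its adjusted p was 0.10. The metalloprotease ADAM12 fell by 0.48 ± 0.15, and its adjusted p of 0.016 became 0.063 and 0.078 by limma without DMSO replicate 1 or pladienolide B replicate 2, with log2 fold changes of -0.42 and -0.36. ADAM9 and NRDC, a protease that enhances shedding of HBEGF, fell by 0.16 and 0.15. ADAM17 itself, the main sheddase of AREG, TGFA and HBEGF, had a log2 fold change of 0.05 ± 0.05 (SE, limma adjusted p = 0.36).

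Of the 19 tested genes on the list of receptor and RAS dampers, 4 were higher and 7 lower, with a median of 0.08. That is 57.9% called, against 47.6% of all tested genes, of which 22.4% were higher and 25.2% lower. UBASH3B, among the higher ones, is known to oppose damping. SPRY1, a Sprouty inhibitor of the RAS-ERK route, fell most: its adjusted reads were 319, 272 and 306 in DMSO and 79.3, 87.5 and 94.2 in pladienolide B. This was a log2 fold change of -1.77 ± 0.12 (SE, limma adjusted p = 5.4e-09). LRIG1, which promotes degradation of ERBB receptors, fell from 1042 ± 110 to 592 ± 67.4 (SD, n = 3), by 0.81 ± 0.09 on the log2 scale. STUB1, a ubiquitin ligase that acts on ERBB2, fell by 0.55 ± 0.05. On the other side, the phosphatase PTPN1 rose by 0.44 ± 0.04 (log2, SE), UBASH3B, which counters CBL-mediated removal of EGFR, by 0.16 ± 0.05, and SPRED3, of a family of RAS-ERK inhibitors, by 0.33 ± 0.10. The limma adjusted p of SPRED3, 0.014, became 0.086 without pladienolide B replicate 3, with a log2 fold change of 0.25.

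Receptor endocytosis genes changed little in size, with 6 higher and 4 lower of 19 tested and a median of 0.03. In all 52.6% were called, near the 47.6% of all tested genes. RAB7A, a small GTPase of late endosomes, rose by 0.38 ± 0.04 (log2, SE), from 9465 ± 48.7 to 12315 ± 158 adjusted reads (SD, n = 3), and the clathrin light chain CLTA and the adaptor EPS15L1 rose by 0.16 and 0.19. STAM2, an endosomal sorting protein, fell by 0.30, and AP2A1 and AP2B1, subunits of the clathrin adaptor AP-2, fell by 0.20 and 0.14. The limma adjusted p of AP2A1, 0.0056, became 0.072 without the variance trend.

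Adaptors and kinases of the RAS-ERK route had 4 higher and 6 lower genes of 20 tested and a median of -0.01. Their called share of 50% was close to the 47.6% of all tested genes. Both MEK kinases fell: MAP2K2 went from 3918 ± 103 to 2667 ± 122 adjusted reads and MAP2K1 from 3142 ± 126 to 2357 ± 45.4 (SD, n = 3). Their log2 fold changes were -0.56 ± 0.05 and -0.41 ± 0.05 (SE), with limma adjusted p of 5e-08 and 1.3e-06. HRAS fell by 0.33, whereas BRAF, a kinase above MEK, rose by 0.18 and the ERK target ELK1, a transcription factor, rose by 0.31.

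The PI3K-AKT list had the most falls, with 2 higher and 9 lower of 18 tested and a median of -0.14. Of all tested genes, 22.4% were higher and 25.2% lower. AKT2 fell by 0.41 ± 0.06 (log2, SE), and RPTOR, the scaffold of mTOR complex 1, by 0.35 ± 0.06. PIK3CA, a catalytic subunit of PI3K, rose by 0.24 ± 0.05, and RICTOR, the scaffold of mTOR complex 2, by 0.17 ± 0.05.

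Genes whose transcription follows ERK activity in many cells had the highest share of calls of the 7 lists, with 8 higher and 0 lower of 10 tested, against 22.4% and 25.2% of all tested genes, and a median of 0.52. The list was chosen with results of these data known and leaves out other transcripts that ERK induces in many cells: FOS, described above, fell by 2.36, and SPRY1, placed among the dampers, fell by 1.77 on the log2 scale, with limma adjusted p of 7.1e-09 and 5.4e-09. The counts of the list were also 8 and 0 in each of 14 other settings of the processing. DUSP4 and DUSP6, phosphatases that act on ERK, had 36.4 ± 7.03 and 273 ± 32.2 adjusted reads in DMSO and 149.9 ± 7.10 and 666 ± 29.3 in pladienolide B (SD, n = 3). Their log2 fold changes were 2.03 ± 0.18 and 1.29 ± 0.09 (SE), with limma adjusted p of 9.6e-08 and 6.4e-09. PHLDA1 rose 2.04-fold, with a log2 fold change of 1.03 ± 0.08 (SE), which was 0.90 without DMSO replicate 2. The 2 genes that were not called, named after their values were seen, were EPHA4 at 0.38 ± 0.22 and ETV4 at 0.01 ± 0.05 (log2 fold change, SE).

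**Figure D4:**
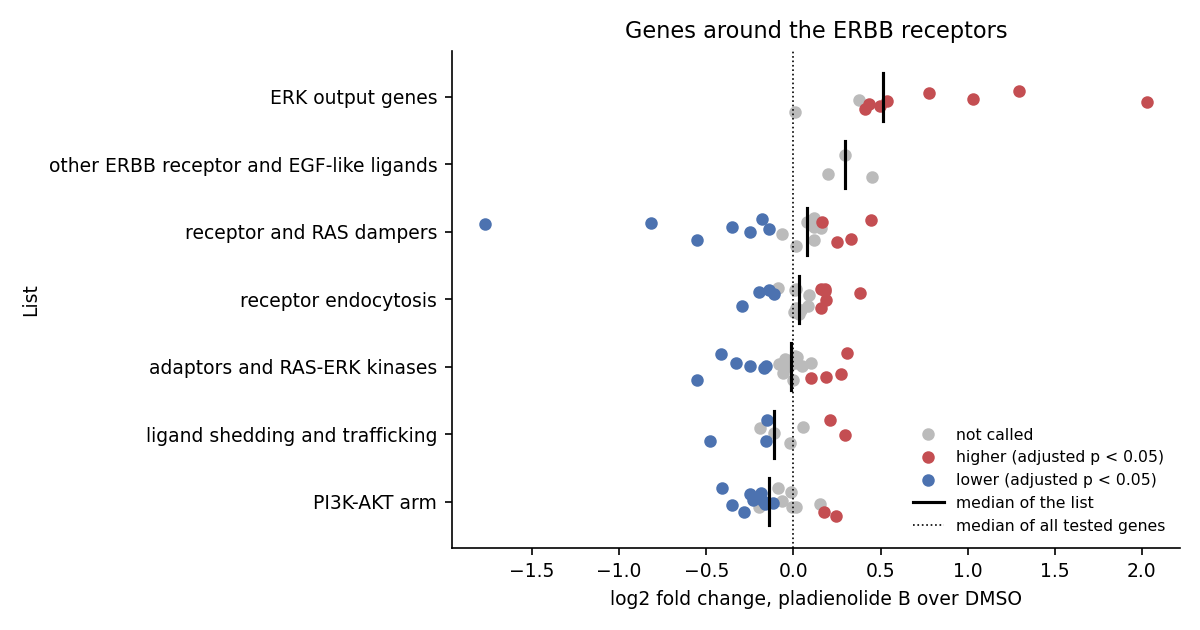
Log2 fold change in pladienolide B relative to DMSO (horizontal axis) of each tested gene in the 7 lists, coloured by call, with a bar at the median of each list and a dotted line at the median of all tested genes. The ERK output genes lie at or above 0, up to 2.03, while 9 of the 18 PI3K-AKT genes are called lower, against 25.2% of all tested genes.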

How the data were processed

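RNA was sequenced from 6 samples of OVCAR8 cells. The submitters' processing notes name HISAT2, HTSeq 0.12.4, DESeq2 and hg19, whereas the study's methods give hg38; positions in the table overlap those of GENCODE version 44 on hg38 for 99.97% of 26990 shared symbols, so hg38 is used. Strand assignment is not given in the sources used here. The authors deposited, for each of 38637 genes, a signal per sample that is a read count adjusted by edgeR to a common library size, and whole reads were recovered from it, within 0.02, for 100% of values of 10 or more. The authors' fold changes, p-values and q-values were not used.

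The adjusted values were filtered with filterByExpr of edgeR 4.0.16 (minimum count of 10, total of 15), leaving 16178 genes, and log2(value + 1) was tested with limma 3.58.1 with a variance trend, two-sided. The pseudocount of 1 understates changes of low genes. The design had foreseen this test for values that are not counts. Alternatives were no filter, 10 in every sample, a pseudocount of 0.1, no trend, edgeR with TMM or RLE factors and DESeq2 1.42.0 on the recovered reads, the replicate number as a block, and leaving out each sample. The scripts were tested on simulated data.

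The members and lists were chosen with earlier results of these data known. Named were all 10 members, up to 3 higher and 3 lower called genes of smallest p per list, all other ERBB and EGF-like genes, and the 3 tested genes most correlated with the member of smallest p. Some list genes that the rule selects are not reported here. ADAM17, EPHA4, ETV4, SPRY2, SPRY4, PIK3CB, PIK3CD and LRIG3 were named after their values were seen.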

Additional observations from a re-analysis of the deposited data

How the results depend on the processing

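Of 126 values of the 9 tested ERBB genes under 14 alternatives, 124 kept their direction and their side of the threshold, and the other 2 were the lost calls of EGFR described above. With the counts of all genes, ERBB genes and list genes at 7695, 7 and 55, the alternatives gave 6381 to 7855, 6 to 7 and 41 to 55 calls, and omitting each sample in turn gave 6580 to 7855, 6 to 7 and 48 to 53. With the replicate number as a block, the counts were 7349, 7 and 52, and the block changed no call of an ERBB gene. Deviations of samples with the same number correlated at -0.018, -0.017 and 0.003, so no pairing by number was seen. With 3 samples per group, these correlations cannot exclude that samples of the same number were handled together. For 51 other genes, 692 of 714 values stayed on the same side, 19 lost the call, and 3 changed sign, those of ETV4, which was not called: -0.0018, -0.0089 and -0.014 without DMSO replicate 1, DMSO replicate 3 and pladienolide B replicate 2, within a range of -0.014 to 0.033 when each sample is omitted. The cause was not tested. Depth limits EREG, ERBB4, EPGN and NRG3, which had 12 reads or fewer in every sample, and the interval of BTC covers changes in both directions.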

Other observations

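Within some families around the receptors, relatives moved in opposite directions, a pattern noticed after the values were seen. SPRY1 fell by 1.77 on the log2 scale, whereas SPRY2 rose by 0.41 ± 0.07 and SPRY4 by 0.78 ± 0.07 (SE), with limma adjusted p of 0.00017 and 1.3e-07. SPRY2 had 437, 409 and 428 adjusted reads in DMSO and 585, 573 and 540.2 in pladienolide B, and SPRY4 had 487, 458 and 479 in DMSO and 791, 881 and 776 in pladienolide B. All 3 genes kept these calls under each of 14 alternatives.

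Among the catalytic subunits of PI3K, PIK3CA rose by 0.24, while PIK3CB fell by 0.25 ± 0.05 and PIK3CD by 0.18 ± 0.05 (log2, SE), and these calls too held under the 14 alternatives. LRIG1 fell by 0.81, whereas its relative LRIG3 rose by 0.25 ± 0.08 (log2, SE, limma adjusted p = 0.019), a call lost under 3 alternatives. Differences between relatives were not tested.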
